A study of Rattus norvegicus with 9 samples.

Results

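The genes described here encode the proteasome: the subunits of its core and regulatory particles, its activators and inhibitor, and the chaperones that assemble its base. They were chosen by symbol, as every name that begins with Psma, Psmb, Psmc, Psmd, Psme or Psmf followed by a number. The rule took 46 of the 17315 symbols in the count tables. Psmc3ip, which also fits the pattern, encodes a recombination factor of meiosis and no proteasome protein, so it is given apart from the other 45 genes. The RNA came from horizontal basal cells, the reserve stem cells at the base of the olfactory epithelium, taken from SD rats and kept in primary culture up to passage 7. Vehicle cells received 0.1% DMSO and carry the label time 0, and the other cells received 50 nM PMA, a phorbol ester that activates protein kinase C, for 6 h or for 12 h. Each of the 3 groups held 3 bulk RNA-seq libraries. Among the samples used here no vehicle library stands at 6 h or 12 h, so PMA and time in culture cannot be told apart. Separate cultures or animals are not named for the replicates, and the p-values therefore measure the spread between these libraries, which may be technical.

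The proteasome breaks down proteins that carry ubiquitin chains. Its core particle is a barrel of alpha rings, which gate the entrance, and beta rings, which hold the catalytic sites. A regulatory particle docks on the alpha ring: a base with a ring of ATPases unfolds the substrate, and a lid binds it and removes the ubiquitin. Interferon-inducible beta subunits can replace the 3 catalytic ones to form the immunoproteasome, known for making peptides for antigen presentation, and other activators can take the place of the regulatory particle. In stem cells and epithelia the complex also controls the levels of cell cycle proteins and transcription factors.

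Each library held 13601635 to 19001819 reads assigned to genes. Levels are given in CPM, reads of a gene relative to library totals scaled by TMM, a method that sets the bulk of genes level between libraries. The TMM factors were 1.28 to 1.31 in vehicle, 0.879 to 0.911 at 6 h and 0.848 to 0.880 at 12 h, so the choice of scaling moves every fold change against vehicle. The horizontal basal cell markers Krt5, Krt14, Tp63, Itga6, Itgb4 and Icam1 were all detected and summed to 14770 to 16970 CPM in vehicle, 2450 to 2961 CPM at 6 h and 3846 to 4490 CPM at 12 h. Krt5 and Krt14, with means of 6827 and 5325 CPM, made up most of the vehicle sum. Icam1 went the other way and rose by 0.30 at 6 h and 1.33 at 12 h on the log2 scale, while the other 5 fell at both times. The 10 markers of dividing cells summed to 276 to 1096 CPM in vehicle, 17.9 to 23.4 CPM at 6 h and 11.2 to 13.4 CPM at 12 h, and all 10 fell at both times. The 9 immune markers summed to 27.8 to 29.9 CPM in vehicle, 71.7 to 73.4 CPM at 6 h and 85.6 to 96.6 CPM at 12 h, with Ptprc, the pan-leukocyte marker, at 0 reads and 6 of the 9 under 1 CPM in every group. Of these markers Cd68, a lysosomal protein, rose by 1.83 at 6 h and 2.13 at 12 h on the log2 scale, and Cd14 fell by 2.40 and 1.26. Sums for 4 sustentacular and gland markers were 23.4 to 25.8 CPM in vehicle. They were 102 to 113 CPM at 6 h and 143 to 192 CPM at 12 h. Of these markers the defining Cyp2g1 and Ermn had 0 reads. Sox9 rose, with means of 18 CPM in vehicle, 73 CPM at 6 h and 137 CPM at 12 h. Krt18 rose as well, with means of 6.5, 37 and 38 CPM. For fibroblast, neuronal and endothelial markers the sums were at most 5.65 CPM in any library. Among them Kdr had 0 reads in vehicle and rose at both times, and Ncam1 rose at 12 h. Col1a1 fell at 12 h. The part of these shifts in the results below was not tested, and in bulk RNA fewer cells of a type and less RNA per cell cannot be told apart.

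All reads on the 45 proteasome genes together made up 0.772% to 0.828% of gene reads in vehicle, 0.524% to 0.557% at 6 h and 0.502% to 0.517% at 12 h. On TMM-scaled totals their sum was 5995 to 6313 CPM in vehicle, 5910 to 6119 CPM at 6 h and 5706 to 6097 CPM at 12 h. The share of all reads thus separated both PMA groups from vehicle, while the scaled sums of the groups overlapped. Of the 45 genes, 42 passed the filter on low counts. Psma8, the alpha subunit of spermatocytes, and Psma3l, a symbol that RefSeq's GRCr8 gene table gives as a synonym of Psma3, had no read in any library, which allows up to 0.0460 CPM in vehicle, 0.0661 CPM at 6 h and 0.0750 CPM at 12 h (3 counts over each group). Psmb11, the beta subunit of the thymus, had 1 read in a single vehicle library. These floors cover counting error only.

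After 6 h, 29 of the 42 tested genes (69.0%) changed, 10 higher and 19 lower, by the quasi-likelihood test of edgeR (adjusted p under 0.05, Benjamini-Hochberg over 10128 genes). Of all tested genes 76.8% changed, 37.8% higher and 39.0% lower. After 12 h, 33 of the 42 (78.6%) changed, 10 higher and 23 lower, against 75.8% of all genes, 37.7% higher and 38.2% lower. Changes of proteasome genes were small: called and at least 2-fold were 2 of 42 at 6 h, where 39.4% of all genes were, and 3 of 42 at 12 h, where 38.4% were. In absolute size the log2 fold change of the 42 had a median of 0.35 at 6 h and 0.40 at 12 h, where over all tested genes it was 0.81 and 0.78. Their median log2 fold change was -0.15 at 6 h and -0.26 at 12 h.

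The direction of the smaller changes depends on the scaling. Relative to TMM, upper-quartile scaling moves the median of all genes by -0.26 at 6 h and -0.27 at 12 h, and library totals alone move it by -0.54 and -0.58. With upper-quartile scaling the split of higher against lower proteasome genes was 2 to 29 at 6 h and 3 to 28 at 12 h, and with library totals 0 to 36 and 1 to 36. Relative to the median of all genes the median of the 42 stayed at -0.12 at 6 h and lay between -0.25 and -0.24 at 12 h with upper-quartile scaling, library totals and RLE size factors. Higher and lower below therefore mean relative to TMM-scaled totals, that is, to most other genes, and a rise that turns negative on library totals alone is given with that value. Not called also refers to TMM and does not mean unchanged. At 6 h Psmb7 (-0.37), Psmc1 (-0.33), Psmc2 (-0.29), Psmd6 (-0.34) and Psme2 (-0.46), among others, were called lower only with upper-quartile scaling or library totals (values with upper-quartile scaling). Ratios between genes of the same library carry no scaling and are given beside the levels.

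**Figure D1:**
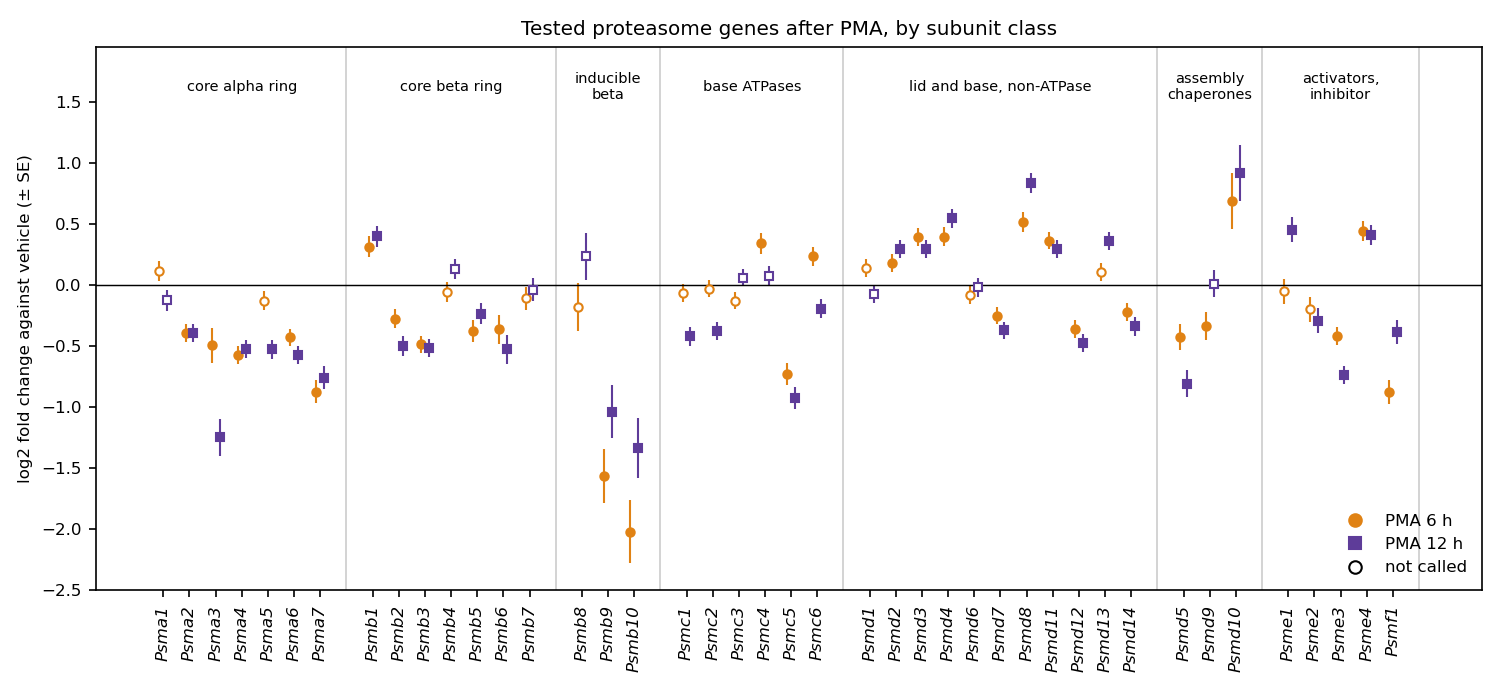
Log2 fold change against vehicle (y axis, TMM scaling) of the 42 tested proteasome genes (x axis, by subunit class) after 6 h (orange circles) and 12 h (purple squares) of PMA; whiskers are SE and open symbols were not called. The fold changes lie between -2.02 for Psmb10 at 6 h and 0.92 for Psmd10 at 12 h, and on library totals alone the higher values turn negative other than those of Psmd10 and, at 12 h, of Psmd8.

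**Figure D2:**
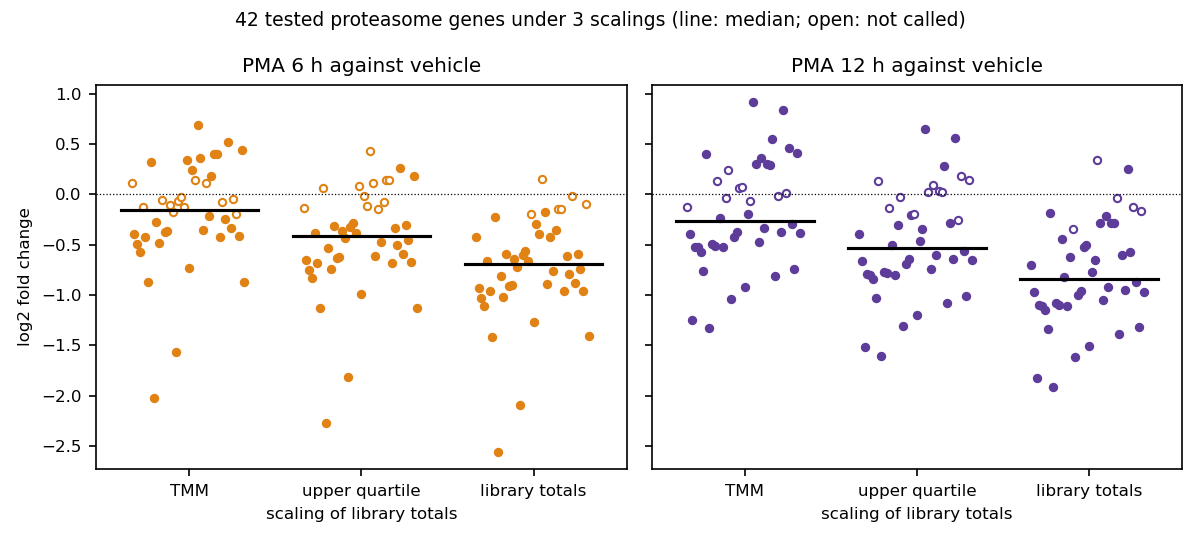
Log2 fold change against vehicle (y axis) of the 42 tested proteasome genes under TMM, upper-quartile scaling and library totals alone (x axis), at 6 h (left) and 12 h (right); each point is a gene, open points were not called and the line is the median. The median sits at -0.15, -0.41 and -0.69 at 6 h and at -0.26, -0.53 and -0.85 at 12 h, so the whole set shifts with the scaling while the spread among the genes stays.

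In the alpha ring, the outer ring of the core that regulatory particles dock on, 5 of the 7 tested genes fell at 6 h and 6 at 12 h, and none rose. That is 71.4% and 85.7% called, where 76.8% and 75.8% of all tested genes were called and 39.0% and 38.2% were lower. Psma7 had 176, 176 and 164 CPM in vehicle, 98.4, 101 and 82.3 CPM at 6 h and 97.6, 92.0 and 116 CPM at 12 h. All 6 PMA libraries lay below all vehicle libraries, with log2 fold changes of -0.87 ± 0.09 (SE) at 6 h (adjusted p = 1.9e-07) and -0.76 ± 0.09 at 12 h (adjusted p = 1.1e-06). Psma3 had 25.2, 20.7 and 23.6 CPM in vehicle, 14.4, 16.1 and 18.9 CPM at 6 h and 9.94, 10.8 and 8.50 CPM at 12 h. The 3 groups of Psma3 did not overlap: it fell by 0.49 ± 0.15 on the log2 scale at 6 h (adjusted p = 0.0051) and by 1.25 ± 0.15 at 12 h (adjusted p = 8.6e-07), and its 12 h libraries were lower than its 6 h libraries (-0.75 ± 0.15, adjusted p = 0.00059). Psma2, Psma4 and Psma6 fell at both times, by 0.39 to 0.57 at 6 h and by 0.39 to 0.57 at 12 h.

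Psma5 changed late. Its levels were 120, 111 and 116 CPM in vehicle, 110, 110 and 97.7 CPM at 6 h and 85.1, 75.7 and 79.7 CPM at 12 h. The 6 h libraries all lay below vehicle, but the value was not called (-0.13, 95% interval -0.29 to 0.04). It was called lower with upper-quartile scaling (-0.38) and on library totals (-0.67). At 12 h Psma5 was lower than in vehicle (-0.53 ± 0.08, adjusted p = 1.1e-05) and than at 6 h (-0.40 ± 0.08, adjusted p = 0.00046). Psma1 was not called against vehicle, with log2 fold changes of 0.12 (95% interval -0.06 to 0.29) at 6 h and -0.12 (-0.30 to 0.05) at 12 h. It was the only alpha gene with a mean above vehicle at 6 h, and on library totals that value was -0.42. RefSeq's GRCr8 table names copies or pseudogenes for 18 of the 42 tested genes. They are Psma2, Psma3, Psma5, Psma6 and Psma7 in the alpha ring and Psmb3, Psmb4, Psmb6 and Psmb7 in the beta ring. The others are Psmc4, Psmc6, Psmd1, Psmd8, Psmd12, Psmd14, Psme1, Psme2 and Psme3. Reads that map to several places are not in these counts, so the levels of such genes, and ratios with them below, are uncertain.

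Of the 7 constitutive beta genes, 4 fell at each time and 1 rose (71.4% called, where 76.8% and 75.8% of all tested genes were). The gene that rose was Psmb1, a structural beta subunit, with 198, 199 and 195 CPM in vehicle, 243, 268 and 225 CPM at 6 h and 252, 235 and 294 CPM at 12 h. Its PMA libraries were all above vehicle, by 0.32 ± 0.09 at 6 h (adjusted p = 0.0029) and 0.40 ± 0.09 at 12 h (adjusted p = 0.00041), but on library totals alone the values were -0.22 and -0.18. Psmb3, another structural subunit, had 146, 152 and 144 CPM in vehicle, 107, 103 and 106 CPM at 6 h and 101, 99.1 and 110 CPM at 12 h. It fell at both times (-0.48 ± 0.07, adjusted p = 8e-06 at 6 h; -0.52 ± 0.07, adjusted p = 4.1e-06 at 12 h), and GRCr8 names 10 copies of it. The 2 structural genes therefore parted from each other: there were 1.34 ± 0.0292 Psmb1 reads per Psmb3 read in vehicle, 2.33 ± 0.245 at 6 h and 2.52 ± 0.153 at 12 h (SD, n = 3 each), and neither PMA group overlapped with vehicle. Psmb2 fell by 0.27 at 6 h and 0.50 at 12 h, and Psmb4 was not called against vehicle (-0.06, 95% interval -0.23 to 0.12, at 6 h and 0.13, -0.04 to 0.31, at 12 h), although it was called at 12 h without PMA 12 h replicate 2 (0.22).

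The 3 catalytic subunits of the core are Psmb6, Psmb7 and Psmb5, which cut after acidic, basic and hydrophobic residues. Their inducible counterparts in the immunoproteasome are Psmb9, Psmb10 and Psmb8, in the same order. The starts of these 6 genes are shown because they make up the 3 catalytic pairs. Each line holds the reference promoter from RefSeq, build GRCr8, 250 bases before to 50 bases after the start, 5′ to 3′ along the gene: Psmb9 from chr20:4668750-4669049 on the plus strand, Psmb6 from chr10:55737638-55737937 on the plus strand, Psmb10 from chr19:50743243-50743542 on the minus strand, Psmb7 from chr3:42827421-42827720 on the minus strand, Psmb8 from chr20:4656982-4657281 on the minus strand and Psmb5 from chr15:32047330-32047629 on the minus strand. Capitals mark matches, on either strand, to TGANNNNGC, the general form of the antioxidant response element, or to GAAANNGAA, the core of the interferon-stimulated response element.
Psmb9: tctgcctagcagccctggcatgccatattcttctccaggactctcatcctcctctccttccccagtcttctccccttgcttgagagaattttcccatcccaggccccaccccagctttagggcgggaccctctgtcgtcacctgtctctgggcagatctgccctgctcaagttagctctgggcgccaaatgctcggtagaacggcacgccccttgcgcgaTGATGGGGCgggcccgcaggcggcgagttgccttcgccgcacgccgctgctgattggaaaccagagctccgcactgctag
Psmb6: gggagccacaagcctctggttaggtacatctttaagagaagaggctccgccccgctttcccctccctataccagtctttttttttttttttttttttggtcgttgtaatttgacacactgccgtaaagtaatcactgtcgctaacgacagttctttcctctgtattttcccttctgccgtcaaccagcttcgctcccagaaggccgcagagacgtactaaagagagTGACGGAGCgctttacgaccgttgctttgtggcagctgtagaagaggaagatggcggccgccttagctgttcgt
Psmb10: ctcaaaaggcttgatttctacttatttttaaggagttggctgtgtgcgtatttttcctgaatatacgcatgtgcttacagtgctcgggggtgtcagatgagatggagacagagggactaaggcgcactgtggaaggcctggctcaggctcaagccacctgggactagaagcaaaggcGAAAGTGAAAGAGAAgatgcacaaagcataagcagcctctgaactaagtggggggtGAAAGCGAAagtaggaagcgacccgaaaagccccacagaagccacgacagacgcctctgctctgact
Psmb7: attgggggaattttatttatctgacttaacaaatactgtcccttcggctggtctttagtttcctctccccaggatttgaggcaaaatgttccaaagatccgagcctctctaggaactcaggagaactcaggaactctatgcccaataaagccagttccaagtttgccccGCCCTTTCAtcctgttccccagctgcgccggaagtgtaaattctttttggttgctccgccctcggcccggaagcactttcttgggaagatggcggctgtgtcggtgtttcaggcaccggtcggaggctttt
Psmb8: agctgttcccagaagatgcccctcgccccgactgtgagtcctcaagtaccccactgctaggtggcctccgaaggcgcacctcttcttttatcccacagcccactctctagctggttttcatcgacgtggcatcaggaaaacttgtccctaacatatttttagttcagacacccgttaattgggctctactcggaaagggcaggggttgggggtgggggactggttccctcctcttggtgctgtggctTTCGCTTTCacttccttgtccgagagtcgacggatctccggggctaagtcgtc
Psmb5: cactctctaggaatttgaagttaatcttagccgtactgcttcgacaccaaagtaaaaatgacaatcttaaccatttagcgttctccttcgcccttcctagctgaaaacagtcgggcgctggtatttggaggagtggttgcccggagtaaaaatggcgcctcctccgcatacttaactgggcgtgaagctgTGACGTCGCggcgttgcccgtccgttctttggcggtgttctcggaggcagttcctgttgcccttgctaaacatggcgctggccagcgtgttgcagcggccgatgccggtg

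The Psmb10 window held 3 matches to GAAANNGAA, of which the first and the second overlap, starting 73, 67 and 17 bases before the gene's start, and the Psmb8 window held 1, on the reverse strand, 3 bases before the start. The other 4 windows held none. TGACNNNGC, the stricter form of TGANNNNGC, stood 24 bases before the start of Psmb6 and 60 bases before that of Psmb5, while Psmb9 and Psmb7 had matches to the general form only, 30 and 81 bases before their starts. Of all 27457 promoters listed, 9.50% held GAAANNGAA, 40.4% held TGANNNNGC and 12.2% held TGACNNNGC. Promoters were found for 39 of the 45 genes, of which 8 (20.5%), 20 (51.3%) and 8 (20.5%) held them. CCAAT stood in 37.7% of all promoters and in 20 of the 39, and TTCNNNGAA, the general STAT motif, in 8.68% and in 4 of the 39. A match describes the letters of the window and shows no binding.

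The 2 inducible genes Psmb9 and Psmb10 had the largest falls against vehicle of all tested proteasome genes at 6 h. Psmb9, in place of Psmb6, had 10.1, 12.4 and 14.4 CPM in vehicle, 3.32, 4.19 and 4.91 CPM at 6 h and 4.63, 6.97 and 6.42 CPM at 12 h. All PMA libraries lay below all vehicle libraries, with log2 fold changes of -1.56 ± 0.22 at 6 h (adjusted p = 4.9e-06) and -1.04 ± 0.21 at 12 h (adjusted p = 0.00032), which are 0.339 and 0.488 times the vehicle level. Psmb10, in place of Psmb7, had 7.51, 7.05 and 7.97 CPM in vehicle, 1.38, 2.06 and 2.08 CPM at 6 h and 2.99, 3.63 and 2.25 CPM at 12 h, from 150 to 174, 20 to 36 and 26 to 50 reads per library. The groups did not overlap, and the log2 fold changes were -2.02 ± 0.26 at 6 h (adjusted p = 1.6e-06) and -1.33 ± 0.25 at 12 h (adjusted p = 0.00011), or 0.247 and 0.397 times the vehicle level. These 4 calls held with every scaling run and when any single library was left out.

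Between 6 h and 12 h both genes had higher values. Psmb10 was called (0.69 ± 0.28, adjusted p = 0.048) by a margin that was lost without 7 of the 9 libraries, each left out in turn: vehicle replicates 1, 2 and 3, PMA 6 h replicates 1 and 2, and PMA 12 h replicates 1 and 2, with values of 0.52 to 0.77. Psmb9 was not called (0.53, 95% interval 0.04 to 1.01, adjusted p = 0.068), but was without PMA 6 h replicate 3 (0.68) or PMA 12 h replicate 1 (0.69).

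The remaining inducible gene, Psmb8, took another course. It had 9.06, 13.0 and 12.6 CPM in vehicle, 10.6, 11.2 and 8.85 CPM at 6 h and 15.5, 10.1 and 15.2 CPM at 12 h. The groups overlapped, and no comparison was called: -0.18 (95% interval -0.59 to 0.23) at 6 h against vehicle, 0.24 (-0.17 to 0.64) at 12 h against vehicle and 0.42 (0.00 to 0.83) at 12 h against 6 h. That last value was called without PMA 12 h replicate 2 (0.60). The lower end of the interval at 6 h lies above the log2 fold changes of Psmb9 and Psmb10 at that time.

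Of the constitutive partners, Psmb6 had 95.0, 87.4 and 78.5 CPM in vehicle, 72.4, 70.9 and 60.0 CPM at 6 h and 62.1, 49.5 and 69.9 CPM at 12 h, and fell by 0.36 ± 0.12 at 6 h (adjusted p = 0.0095) and 0.53 ± 0.12 at 12 h (adjusted p = 0.00065). Psmb7 had 187, 191 and 159 CPM in vehicle, 169, 171 and 159 CPM at 6 h and 165, 156 and 202 CPM at 12 h, with overlapping groups and no call (-0.11, 95% interval -0.31 to 0.09, and -0.04, -0.24 to 0.16). Psmb5 had 115, 113 and 101 CPM in vehicle, 87.6, 81.8 and 84.6 CPM at 6 h and 90.4, 84.8 and 105 CPM at 12 h. Its 6 h libraries all lay below vehicle (-0.38 ± 0.09, adjusted p = 9e-04), while at 12 h 1 library reached into the vehicle range (-0.23 ± 0.09, adjusted p = 0.023) and the call ended when replicate 1 (-0.20) or 2 (-0.21) of vehicle, or 1 (-0.21) or 2 (-0.17) of PMA 12 h, was left out.

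**Figure D3:**
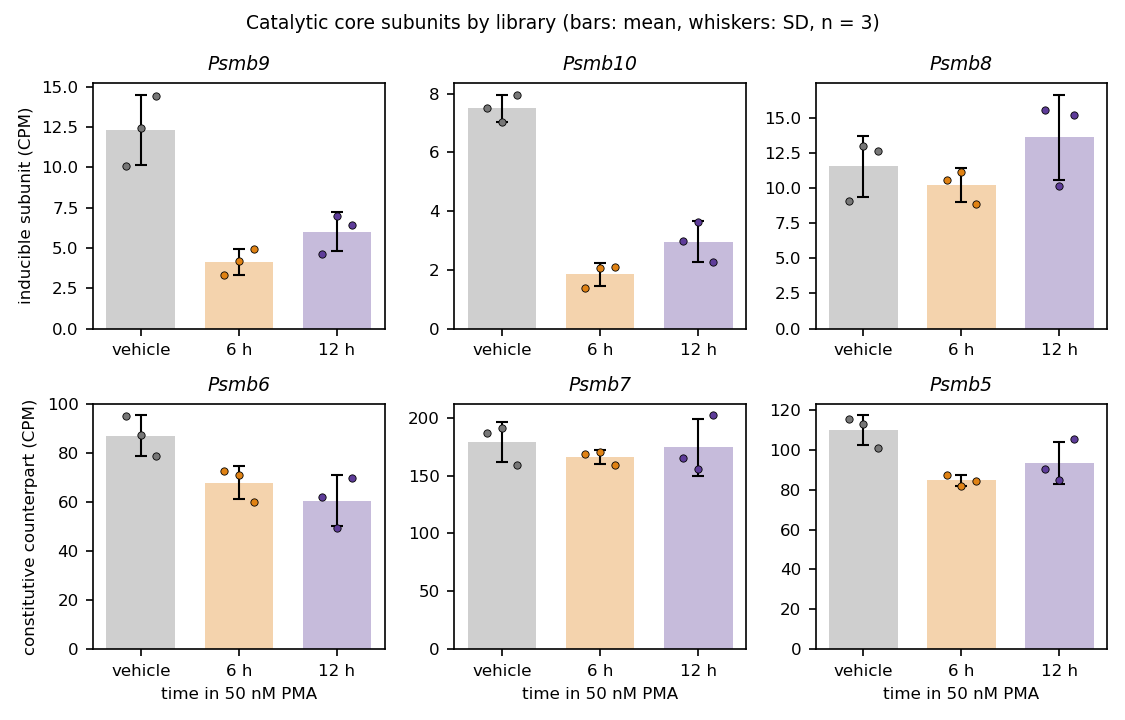
Level (y axis, CPM of TMM-scaled totals) of the inducible catalytic genes (upper row) and the constitutive gene each replaces (lower row) in vehicle, at 6 h and at 12 h of PMA (x axis); points are libraries, bars the mean and whiskers the SD of 3. The Psmb9 and Psmb10 libraries under PMA all sit below vehicle, at 3.32 to 6.97 and 1.38 to 3.63 CPM, whereas the Psmb8 and Psmb7 libraries of the 3 groups overlap.

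Per 100 reads of the constitutive partner in the same library, Psmb9 had 14.4 ± 3.91 reads in vehicle, 6.23 ± 1.83 at 6 h and 10.2 ± 3.43 at 12 h (SD, n = 3 each). The 6 h libraries lay apart from vehicle and the 12 h libraries overlapped with it. Psmb10 had 4.24 ± 0.693 reads per 100 Psmb7 reads in vehicle, 1.11 ± 0.258 at 6 h and 1.75 ± 0.609 at 12 h, apart from vehicle at both times. Psmb8 had 10.6 ± 2.41 reads per 100 Psmb5 reads in vehicle, 12.1 ± 1.60 at 6 h and 14.5 ± 2.64 at 12 h, with overlap at both times. A set of 3 libraries against 3 allows no exact permutation p below 0.1, so such ratios are described by their values and overlap.

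RefSeq's GRCr8 table places Psmb8 and Psmb9 side by side with the peptide transporter genes, in the order Tap2, Psmb8, Tap1, Psmb9. The 4 neighbours were not all called: at 6 h Tap1 fell with Psmb9 (-0.50 ± 0.08, adjusted p = 2.5e-05), while Tap2 (0.43, 95% interval -0.17 to 1.04) and Psmb8 were not called. Tap2 was low, with means of 2.55 CPM in vehicle and 3.44 CPM at 6 h. Differences between the neighbours were not tested, and the interval of Psmb8 includes the value of Tap1. Tap1 had 73.2, 68.9 and 64.1 CPM at 6 h, against 89.5, 101 and 101 CPM in vehicle. At 12 h its 95.2, 98.4 and 98.9 CPM lay within the vehicle range (0.01, 95% interval -0.17 to 0.18), where Psmb9 was still lower.

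Of the 6 ATPases of the base, which form the ring that unfolds substrates, 2 rose and 1 fell at 6 h, and none rose and 4 fell at 12 h. That is 50% and 66.7% called, where 76.8% and 75.8% of all tested genes were called. Psmc5 had 167, 147 and 136 CPM in vehicle, 100, 87.2 and 84.4 CPM at 6 h and 80.8, 73.9 and 82.8 CPM at 12 h. It fell at both times without overlap (-0.73 ± 0.09, adjusted p = 1.1e-06 at 6 h; -0.92 ± 0.09, adjusted p = 6.8e-08 at 12 h). Psmc4 had 158, 140 and 138 CPM in vehicle, 185, 163 and 203 CPM at 6 h and 154, 152 and 153 CPM at 12 h. Psmc4 was higher at 6 h (0.34 ± 0.08, adjusted p = 0.0013; -0.19 on library totals) and not called at 12 h (0.08, 95% interval -0.10 to 0.25).

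Psmc6 was called in opposite directions at the 2 times. It had 160, 153 and 161 CPM in vehicle, 182, 175 and 200 CPM at 6 h and 143, 145 and 127 CPM at 12 h. The 3 groups did not overlap: the 6 h libraries were higher than vehicle (0.24 ± 0.08, adjusted p = 0.0092), the 12 h libraries lower than vehicle (-0.19 ± 0.08, adjusted p = 0.031), and the 12 h libraries lower than the 6 h libraries (-0.43 ± 0.08, adjusted p = 0.00018). On library totals the 6 h value was -0.30, and with upper-quartile scaling -0.02. Its 6 h call ended when PMA 6 h replicate 3 was left out (0.17). Its 12 h call ended when replicate 1 (-0.19) or 3 (-0.18) of vehicle or replicate 3 of PMA 12 h (-0.13) was left out. The step between 12 h and 6 h was called whichever library was left out.

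Psmc1 and Psmc2 were not called at 6 h (-0.07, 95% interval -0.22 to 0.09, and -0.03, -0.18 to 0.12). These 6 h values were called lower with upper-quartile scaling (-0.33 and -0.29) and on library totals (-0.61 and -0.57). Both genes fell at 12 h (-0.42 ± 0.08, adjusted p = 7.2e-05, and -0.38 ± 0.07, adjusted p = 0.00012). Their 12 h libraries held 164 to 168 CPM of Psmc1 and 112 to 123 CPM of Psmc2, against 201 to 244 and 147 to 159 CPM in vehicle. Psmc3 was not called against vehicle (-0.13, 95% interval -0.28 to 0.03, at 6 h and 0.06, -0.09 to 0.21, at 12 h).

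The 11 non-ATPase genes of base and lid taken by symbol moved in both directions: 5 rose and 3 fell at 6 h, and 6 rose and 3 fell at 12 h. Subunits under other symbols are not among them. That is 72.7% and 81.8% called, where 76.8% and 75.8% of all tested genes were called. Of all tested genes 37.8% and 37.7% were higher and 39.0% and 38.2% lower. Psmd8, the lid subunit that joins last when the lid assembles in yeast, had 140, 129 and 118 CPM in vehicle, 187, 195 and 172 CPM at 6 h and 223, 219 and 248 CPM at 12 h. The 3 groups did not overlap, with 0.52 ± 0.08 at 6 h (adjusted p = 1.7e-05; -0.02 on library totals) and 0.83 ± 0.08 at 12 h (adjusted p = 5.7e-08; 0.25 on library totals). Psmd4, a ubiquitin receptor of the base, had 138, 126 and 136 CPM in vehicle, 163, 187 and 177 CPM at 6 h and 189, 187 and 209 CPM at 12 h. It rose by 0.40 ± 0.08 at 6 h (adjusted p = 0.00014) and 0.55 ± 0.08 at 12 h (adjusted p = 4.5e-06), with -0.14 and -0.04 on library totals. Psmd3, a structural lid subunit, had 289, 265 and 275 CPM in vehicle, 381, 370 and 342 CPM at 6 h and 332, 322 and 363 CPM at 12 h, without overlap between PMA and vehicle (0.40 ± 0.07, adjusted p = 1e-04, and 0.30 ± 0.07, adjusted p = 0.0016; -0.14 and -0.29 on library totals).

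Psmd11, the lid subunit that clamps onto the core, rose by 0.36 ± 0.07 at 6 h (adjusted p = 0.00017) and 0.30 ± 0.07 at 12 h (adjusted p = 0.0012), with -0.17 and -0.28 on library totals. Psmd2, a scaffold of the base that binds shuttle factors, rose by 0.18 ± 0.07 (adjusted p = 0.034) and 0.30 ± 0.07 (adjusted p = 0.0013), with -0.36 and -0.28 on library totals. Psmd2 was no longer called at 6 h when replicate 1 (0.16) or 3 (0.14) of vehicle, 2 (0.19) or 3 (0.13) of PMA 6 h, or 1 of PMA 12 h (0.18) was left out. Psmd13, a lid subunit, was not called at 6 h (0.11, 95% interval -0.04 to 0.26) and rose at 12 h to 198 to 225 CPM, against 161 to 168 CPM in vehicle (0.36 ± 0.07, adjusted p = 0.00021; -0.22 on library totals).

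The deubiquitinase of the lid, Psmd14, and its partner Psmd7 fell at both times. Psmd14 had 119, 111 and 112 CPM in vehicle, 94.7, 92.7 and 106 CPM at 6 h and 93.6, 88.8 and 88.5 CPM at 12 h (-0.22 ± 0.08, adjusted p = 0.015, and -0.34 ± 0.08, adjusted p = 0.00079). Its PMA libraries lay below vehicle, but the 6 h call ended when replicate 1 of vehicle (-0.19), or 1 (-0.20) or 2 (-0.18) of PMA 6 h, was left out. Psmd7 fell by 0.25 ± 0.07 at 6 h (adjusted p = 0.0043) and 0.37 ± 0.07 at 12 h (adjusted p = 0.00016). Psmd12, a lid scaffold, fell by 0.36 ± 0.07 at 6 h (adjusted p = 0.00031) and 0.47 ± 0.07 at 12 h (adjusted p = 1.9e-05). Psmd1, a scaffold of the base, and Psmd6, a lid subunit, were not called against vehicle. Psmd1 had 0.14 (95% interval -0.01 to 0.30) at 6 h, called without PMA 6 h replicate 2 (0.20) and at -0.39 on library totals, and -0.07 (-0.23 to 0.09) at 12 h. Psmd6 had -0.08 (-0.24 to 0.09) and -0.02 (-0.18 to 0.15).

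Reads were also summed over the subunits taken by symbol, which leaves out subunits under other symbols. Those of the regulatory particle per read of the core particle came to 1.58 ± 0.0228 in vehicle, 1.99 ± 0.0889 at 6 h and 1.98 ± 0.0553 at 12 h (SD, n = 3 each). All 6 PMA libraries, at 1.91 to 2.08, lay above the vehicle libraries, at 1.56 to 1.60. The non-ATPase subunits gave 1.04 ± 0.0124 reads per core read in vehicle, 1.37 ± 0.0597 at 6 h and 1.42 ± 0.0399 at 12 h, also without overlap between PMA and vehicle. The ATPases gave 0.542 ± 0.0197 in vehicle, 0.620 ± 0.0318 at 6 h, above vehicle, and 0.560 ± 0.0155 at 12 h, which overlapped with vehicle. Within the core, reads of the alpha ring per read of the beta rings were 1.05 ± 0.0518 in vehicle, 0.889 ± 0.0423 at 6 h and 0.794 ± 0.0982 at 12 h, with both PMA groups below vehicle. Among the genes taken by symbol, Psmd8 had the largest rise of the lid at both times and Psma7 the largest fall of the alpha ring at 6 h. This pair had 0.749 ± 0.0404 Psmd8 reads per Psma7 read in vehicle, 1.97 ± 0.102 at 6 h and 2.27 ± 0.115 at 12 h. That pair and the pair Psmb1 and Psmb3 were chosen after their values were seen, and such ratios follow the most counted subunits and are no measure of assembled particles.

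**Figure D4:**
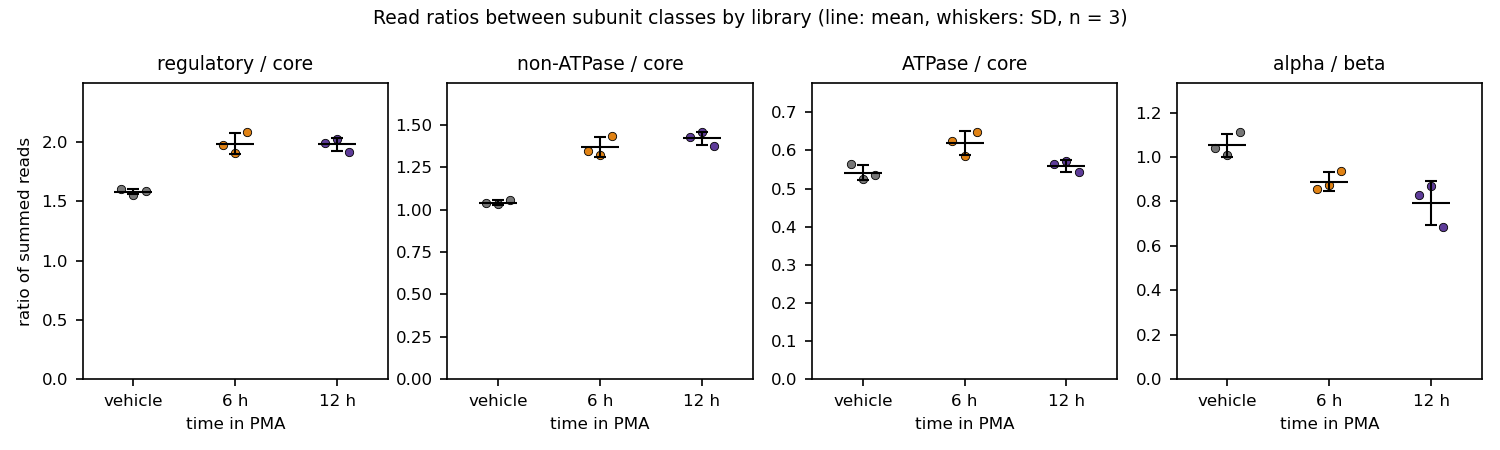
Ratio of summed reads (y axis) between subunit classes in each library, in vehicle, at 6 h and at 12 h of PMA (x axis); points are libraries, the line is the mean and whiskers the SD of 3. The regulatory to core ratio sits at 1.91 to 2.08 in PMA libraries and at 1.56 to 1.60 in vehicle, and the alpha to beta ratio is lower in PMA than in vehicle libraries.

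The 3 chaperones that assemble the base moved in different directions. Psmd10, also known as gankyrin, had 4.10, 4.17 and 2.76 CPM in vehicle, 6.43, 4.92 and 6.48 CPM at 6 h and 7.42, 7.48 and 5.98 CPM at 12 h, from 52 to 112 reads per library. It had the largest positive log2 fold change of the tested genes at both times, 0.69 ± 0.23 at 6 h (adjusted p = 0.012) and 0.92 ± 0.23 at 12 h (adjusted p = 0.0017). On library totals these were 0.15 (adjusted p = 0.56) and 0.34 (adjusted p = 0.20), and the 6 h call was lost without vehicle replicate 3 (0.52). Psmd5 had 55.9, 49.9 and 50.7 CPM in vehicle, 38.1, 34.1 and 44.2 CPM at 6 h and 28.3, 32.6 and 28.4 CPM at 12 h. Its 3 groups did not overlap (-0.43 ± 0.11, adjusted p = 0.0018 at 6 h; -0.81 ± 0.11, adjusted p = 3.6e-06 at 12 h).

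Psmd9 had 59.7, 49.3 and 45.4 CPM in vehicle, 38.8, 44.0 and 39.5 CPM at 6 h and 55.6, 45.6 and 54.6 CPM at 12 h. It was lower at 6 h (-0.34 ± 0.11, adjusted p = 0.012), a call that ended when replicate 1 of vehicle (-0.22) or of PMA 6 h (-0.30) was left out, and within the vehicle range at 12 h (0.01, 95% interval -0.23 to 0.25).

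Among the activators, Psme1 and Psme2 form the interferon-inducible cap, Psme3 a cap of the nucleus, and Psme4 a large single-chain cap known from sperm and DNA repair. Psmf1 is an inhibitor that binds the core. At 6 h 1 of these 5 genes rose and 2 fell, and at 12 h 2 rose and 3 fell. That is 60% and 100% called, where 76.8% and 75.8% of all tested genes were called. Psme4 had 189, 193 and 195 CPM in vehicle, 249, 241 and 295 CPM at 6 h and 252, 274 and 244 CPM at 12 h, and rose by 0.44 ± 0.08 (adjusted p = 8.8e-05) and 0.41 ± 0.08 (adjusted p = 0.00018), with -0.09 and -0.17 on library totals. Psme3 had 200, 191 and 194 CPM in vehicle, 144, 143 and 150 CPM at 6 h and 117, 126 and 107 CPM at 12 h, without overlap between any groups. It fell by 0.42 ± 0.07 at 6 h (adjusted p = 5e-05) and by 0.74 ± 0.07 at 12 h (adjusted p = 6.6e-08). Per Psme3 read there were 0.989 ± 0.0356 Psme4 reads in vehicle, 1.79 ± 0.151 at 6 h and 2.20 ± 0.0640 at 12 h (SD, n = 3 each), again without overlap. The separation of this ratio from vehicle follows from the opposite calls of Psme4 and Psme3 and adds nothing to them.

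Psme1 had 52.0, 55.4 and 49.1 CPM in vehicle, 51.5, 54.7 and 45.2 CPM at 6 h and 68.5, 65.9 and 80.6 CPM at 12 h. Its 6 h libraries overlapped with vehicle (-0.05, 95% interval -0.26 to 0.16), and its 12 h libraries lay above both (0.46 ± 0.10 against vehicle, adjusted p = 0.00053; -0.13 on library totals). Its partner Psme2 had 41.0, 39.9 and 38.1 CPM in vehicle, 36.1, 33.9 and 33.7 CPM at 6 h and 34.5, 29.0 and 33.7 CPM at 12 h. Psme2 was not called at 6 h (-0.20, 95% interval -0.41 to 0.01) and was lower at 12 h (-0.29 ± 0.10, adjusted p = 0.014), a call lost without PMA 12 h replicate 2 (-0.21). Psme1 reads per Psme2 read came to 1.32 ± 0.0646 in vehicle, 1.46 ± 0.140 at 6 h, overlapping with vehicle, and 2.22 ± 0.208 at 12 h, apart from it. The 2 genes lie on both sides of Emc9 in GRCr8. The strand columns of the tables held 113% of the unstranded Psme1 reads, as happens where reads shared with a gene on the other strand are kept out of the unstranded column, so the level of Psme1 is uncertain.

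Psmf1 had 44.1, 40.7 and 43.2 CPM in vehicle, 22.6, 23.4 and 23.9 CPM at 6 h and 34.2, 31.5 and 32.2 CPM at 12 h. The 3 groups did not overlap, and the inhibitor was lowest at 6 h (-0.87 ± 0.10, adjusted p = 3e-07), less so at 12 h (-0.39 ± 0.10, adjusted p = 0.0016), and higher at 12 h than at 6 h (0.49 ± 0.10, adjusted p = 0.00059).

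**Figure D5:**
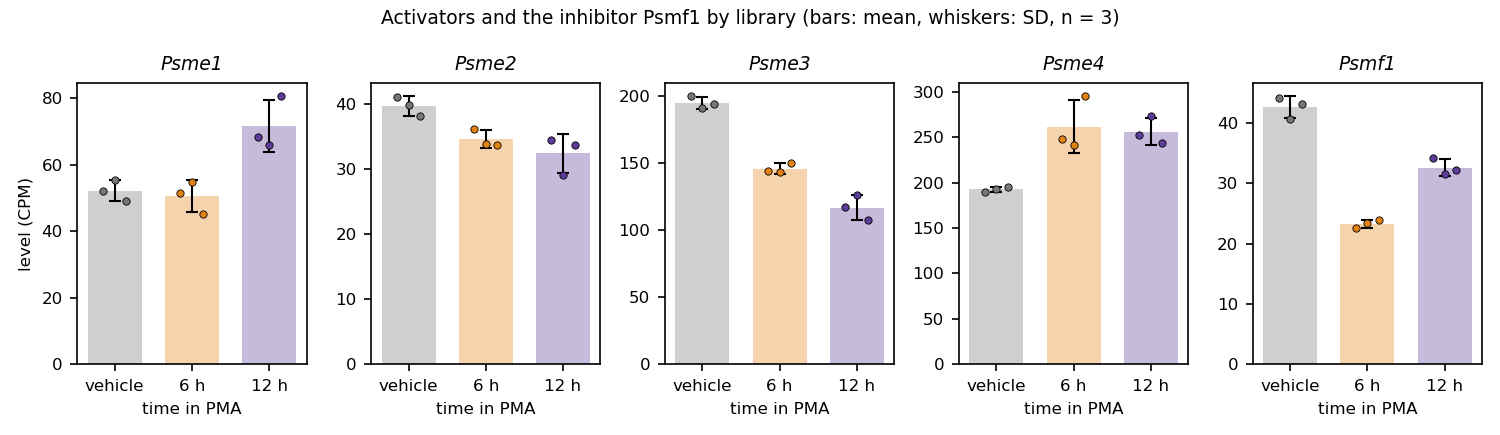
Level (y axis, CPM of TMM-scaled totals) of the activator genes Psme1, Psme2, Psme3 and Psme4 and the inhibitor gene Psmf1 in vehicle, at 6 h and at 12 h of PMA (x axis); points are libraries, bars the mean and whiskers the SD of 3. Psme3 steps down with time and Psmf1 is lowest at 6 h, at 22.6 to 23.9 CPM, while Psme4 and, at 12 h, Psme1 sit above vehicle on this scaling but not on library totals.

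Between 12 h and 6 h, 18 of the 42 genes (42.9%) changed, 7 higher and 11 lower, against 51.1% of all tested genes, 25.3% higher and 25.8% lower. None of the 42 was called at 2-fold or more, where 11.5% of all genes were. The ATPases held 4 of the 11 that were lower (Psmc1, Psmc2, Psmc4 and Psmc6), by 0.27 to 0.43, and 1 of the 7 that were higher, Psmc3 (0.19 ± 0.07, adjusted p = 0.038). Reads of the ATPases per core read were lower at 12 h than at 6 h without overlap, at 0.543 to 0.573 against 0.585 to 0.648. The other genes that were lower were Psma1, Psma3 and Psma5 in the alpha ring, Psmb2 in the beta ring, Psmd1, the chaperone Psmd5 and Psme3. Psme1 (0.51 ± 0.10, adjusted p = 0.00049), Psmf1, Psmd8, Psmd13, Psmd9 (0.35 ± 0.11, adjusted p = 0.017) and Psmb10 were higher.

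Of these 18 calls, 7 others beside Psmb10 ended when 1 library was left out. For Psmc4 (-0.18) and Psmd5 (-0.27) it was PMA 6 h replicate 3. The call of Psma1 ended without PMA 6 h replicate 3 (-0.13), PMA 12 h replicate 1 (-0.25) or PMA 12 h replicate 3 (-0.19), and Psmd1 without the same 3 libraries (-0.13, -0.19 and -0.20). For Psmb2 these were replicates 2 (-0.18) and 3 (-0.22) of PMA 6 h and 1 (-0.18) and 2 (-0.20) of PMA 12 h. That of Psmd9 ended without PMA 6 h replicate 1 (0.32), PMA 12 h replicate 1 (0.30) or PMA 12 h replicate 3 (0.31). For Psmc3 these were replicate 2 of vehicle (0.19), each of the PMA 6 h libraries (0.18 to 0.20), and replicates 1 (0.20) and 3 (0.13) of PMA 12 h. Psmb4 (0.27 without PMA 12 h replicate 2) was called in turn.

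Among 11 genes that assemble or adjoin the proteasome, the log2 fold change had a median absolute size of 0.85 at 6 h and 0.91 at 12 h, near the 0.81 and 0.78 of all tested genes. Of the 11 assembly factors and associated proteins, 3 rose and 6 fell at 6 h, and 4 rose and 5 fell at 12 h. That is 81.8% called at each time, where 76.8% and 75.8% of all tested genes were called. Psmg1 and Psmg2, the paired chaperones of the alpha ring, fell at 6 h by 1.38 ± 0.14 (adjusted p = 5.9e-08) and 1.00 ± 0.12 (adjusted p = 3.7e-07) and at 12 h by 1.57 ± 0.14 and 0.94 ± 0.12. Psmg1 had 43.2, 37.1 and 38.0 CPM in vehicle, 14.7, 12.5 and 18.1 CPM at 6 h and 14.2, 12.7 and 12.8 CPM at 12 h, and its PMA libraries all lay below vehicle. The deubiquitinases that dock on the regulatory particle, Uchl5 and Usp14, fell by 0.94 and 0.67 at 6 h and by 1.17 and 1.00 at 12 h. Adrm1, the ubiquitin receptor that holds Uchl5, rose by 0.90 ± 0.07 at 6 h (adjusted p = 2.2e-09) and 0.51 ± 0.07 at 12 h. Akirin2, which carries proteasomes into the nucleus, rose by 1.57 ± 0.08 at 6 h (adjusted p = 5.1e-12) and 1.22 ± 0.08 at 12 h, with 52.6, 45.9 and 50.7 CPM in vehicle, 143, 149 and 152 CPM at 6 h and 118, 111 and 118 CPM at 12 h.

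Of 14 ubiquitin genes and shuttle factors, 9 rose and 2 fell at 6 h, and 7 rose and 1 fell at 12 h. That is 78.6% and 57.1% called, where 76.8% and 75.8% of all tested genes were called. Ubqln1, which carries ubiquitinated proteins to the proteasome, rose by 0.92 ± 0.07 at 6 h (adjusted p = 3e-09) and 0.99 ± 0.07 at 12 h (adjusted p = 1.3e-09). Of 11 genes that act on the transcription of proteasome genes, 6 rose and 3 fell at 6 h (81.8% called), and 7 rose and 3 fell at 12 h (90.9%). Maff and Mafk, small Maf partners of the NRF factors, rose by 3.68 ± 0.09 and 2.94 ± 0.09 at 6 h and by 4.32 and 2.95 at 12 h. Nfe2l2, which encodes a member of that family, fell by 1.15 ± 0.09 at 6 h (adjusted p = 1.9e-09) and 0.45 ± 0.09 at 12 h, and Ngly1, the glycanase that NRF1 needs for its activation, by 1.99 ± 0.14 and 1.24 ± 0.14. Nfe2l1, the gene of NRF1, was not analysed here.

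Among 11 genes of antigen presentation and its regulators, 5 rose and 3 fell at 6 h, and 6 rose and 2 fell at 12 h. That is 72.7% called at each time, where 76.8% and 75.8% of all tested genes were called. B2m, the light chain of class I molecules, rose by 1.03 ± 0.07 at 6 h (adjusted p = 4e-10) and 1.34 ± 0.07 at 12 h. Ciita, the class II transactivator, fell by 2.68 ± 0.27 at 6 h (adjusted p = 7.6e-08) and 1.81 ± 0.25 at 12 h (adjusted p = 4.7e-06). Irf1, a transcription factor of the interferon response, had 35.8, 35.1 and 36.6 CPM in vehicle, 45.8, 41.1 and 40.4 CPM at 6 h and 139, 127 and 134 CPM at 12 h (0.24 ± 0.08, adjusted p = 0.015, and 1.90 ± 0.08, adjusted p = 1.4e-12). Of the 9 genes of the COP9 signalosome, a complex related to the lid, 1 rose and 6 fell at 6 h (77.8% called). At 12 h none rose and 5 fell (55.6% called), and the falls at both times were by at most 0.54. The rises of Irf1 at 6 h and of Adrm1 at 12 h are smaller than the shift of all genes between TMM and library totals, and the counts of related genes depend on the scaling in the same way.

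Psmc3ip, the recombination factor that shares only the name, had 17.6, 18.9 and 20.9 CPM in vehicle, 5.26, 4.04 and 6.76 CPM at 6 h and 2.79, 2.32 and 3.47 CPM at 12 h. Its 3 groups did not overlap, with -1.83 ± 0.20 at 6 h (adjusted p = 2.1e-07), -2.75 ± 0.22 at 12 h (adjusted p = 3.4e-09) and -0.92 ± 0.23 between 12 h and 6 h (adjusted p = 0.0029). The strand columns held 105% of its unstranded reads, so its level is uncertain. At 12 h that fall was larger than that of any of the 42 tested proteasome genes. The markers of dividing cells fell at the same times, and their part in this fall was not tested.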

How the data were processed

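Bulk RNA-seq libraries of rat horizontal basal cells were grouped by the treatment and time in their titles. Reads were aligned by the authors to rn6 with STAR 2.7.5b, per the submitters' processing notes, and the deposited tables hold raw counts per gene in 1 unstranded column and a column for each strand. The annotation they used, not given in the sources used here, sets which symbols appear. Normalized values deposited for the whole series were not used. The unstranded counts entered every test. Reads mapping to several places (5.95% to 7.74% per library) or to overlapping genes (0.526% to 0.740%) are held outside the genes.

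The analysis ran in R 4.3.3. In edgeR 4.0.16, filterByExpr (minimum count 10) left 10128 genes, TMM scaled the totals, and a robust quasi-likelihood model with group as its only term was fitted to all 9 libraries. SE was the log2 fold change divided by the square root of its F, and intervals are 95%. The common dispersion was 0.0125 (coefficient of variation 11.2%). On simulated counts for 6 h against vehicle over 10032 genes, 100% of 100 genes changed 2-fold and 21% of 100 changed 1.3-fold were recovered, with 9 false calls. Alternatives were limma-voom (limma 3.58.1), DESeq2 1.42.0, RLE, upper-quartile and total scaling, no filter on low counts, summed strand columns, a replicate block, 2 groups only, adjusted p under 0.01 and leaving out each library.

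The members, related lists, ratios and naming rule were chosen with earlier results of these data known. The rule names the catalytic and activator genes, and in each comparison the 4 members with the largest positive and the 4 with the largest negative fold change among those called without overlap between groups. For each related list it names up to 4 genes, some of which are not reported here. Other members were described to account for each of them. The motifs TTCNNNGAA and GAAANNGAA were added after the values were seen.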

Additional observations from a re-analysis of the deposited data

Results flagged for a closer look

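Psmc6, an ATPase of the base, was singled out because its calls against vehicle had opposite directions at the 2 times and the difference between them passed its own test. The log2 fold change was 0.24 at 6 h (adjusted p = 0.0092) and -0.19 at 12 h (adjusted p = 0.031), and the difference between 12 h and 6 h was -0.43 (adjusted p = 0.00018, edgeR's quasi-likelihood test). All 3 libraries at 12 h, with 127 to 145 CPM, lay below all 3 at 6 h, with 175 to 200 CPM. The direction at 6 h depends on the scaling, whereas the difference between the 2 PMA times was called with every scaling and without any single library.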

How the results depend on the processing

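The counts against vehicle moved with the scaling. With upper-quartile scaling the proteasome genes called higher and lower were 2 and 29 at 6 h, with 3 higher at 12 h, and with library totals they were 0 and 36 at 6 h and 1 and 36 at 12 h. The median log2 fold change was -0.41 at 6 h and -0.53 at 12 h with upper-quartile scaling, and -0.69, -0.85 and, for 12 h against 6 h, -0.0747 with library totals. Among genes called in at least 1 of the 2 fits, signs turned on library totals for Psma1 (-0.42), Psmb1 (-0.22), Psmc4 (-0.19), Psmc6 (-0.30), Psmd1 (-0.39), Psmd11 (-0.17), Psmd13 (-0.43), Psmd2 (-0.36), Psmd3 (-0.14), Psmd4 (-0.14), Psmd8 (-0.0211) and Psme4 (-0.0932) at 6 h. At 12 h they turned for Psmb1 (-0.18), Psmb4 (-0.45), Psmc3 (-0.52), Psmc4 (-0.51), Psmd11 (-0.28), Psmd13 (-0.22), Psmd2 (-0.28), Psmd3 (-0.29), Psmd4 (-0.035), Psmd9 (-0.57), Psme1 (-0.13) and Psme4 (-0.17). With upper-quartile scaling they turned, among such genes, for Psmc6 (-0.0201) and Psmd2 (-0.0785) at 6 h and Psmc3 (-0.21) at 12 h. Values called in neither fit turned on library totals for Psmb8 at 12 h (-0.34), and with upper-quartile scaling for Psma1 (-0.14), Psmd1 (-0.11) and Psmd13 (-0.15) at 6 h and Psmb4 (-0.14), Psmb8 (-0.0314), Psmc4 (-0.19) and Psmd9 (-0.26) at 12 h. These follow from the shift of all genes with the scaling. At adjusted p under 0.01, 4 genes were higher and 7 lower at 12 h against 6 h. RLE size factors and summed strand columns changed none of the 129 gene calls, and DESeq2, limma-voom and the fit of 2 groups ended that of Psmb10 between 12 h and 6 h only, which the absence of a filter ended together with that of Psmd2 at 6 h.

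Leaving out each library in turn gave 8 to 10 genes higher and 17 to 19 lower at 6 h, 10 to 11 and 21 to 23 at 12 h, and 4 to 8 and 6 to 11 between 12 h and 6 h. The medians ranged over -0.17 to -0.14, -0.32 to -0.22 and -0.0646 to -0.0027. Replicate numbers did not pair the libraries: the 9 same-number correlations ran from -0.163 to 0.0439. A replicate block gave 9 higher and 19 lower at 6 h, 10 and 22 at 12 h, and 6 and 11 between 12 h and 6 h, with medians of -0.15, -0.27 and -0.03. It ended the calls of Psmd2 at 6 h (0.18), Psmc6 at 12 h (-0.19), and Psmb10 (0.69) and Psmc3 (0.19) between 12 h and 6 h, and called Psmb9 there (0.54). Depth limits Psmb10, Psmb9, Psmb8 and Psmd10, whose levels stayed under 16 CPM. The simulated counts, of which 21% of the 1.3-fold changes were recovered, held far fewer changed genes than these data. That share therefore does not carry over to the members. At 6 h, changes near that size were called for Psma2 (-0.39) and Psmd11 (0.36).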
